A study of Mus musculus with 2 samples.

Results

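The Cd4+ T cells described here were 157 of 7177 cells recovered from a sort for type 3 innate lymphoid cells (ILC3s) of the mouse small intestine. A cell was counted among them when it had at least 1 Cd4 unique molecular identifier (UMI, which marks 1 captured mRNA molecule), at least 1 Trac UMI, at least 1 UMI of Cd3d, Cd3e or Cd3g, and no Trdc UMI. Replicate 1 held 106 of them among 3337 kept cells (3.18%, exact 95% binomial interval 2.61 to 3.83%). Replicate 2 held 51 among 3840 (1.33%, interval 0.99 to 1.74%), so the replicates' intervals did not overlap and the mean share was 2.25% ± 1.31 (SD, n = 2). The cells were chosen by these measured UMI counts, so the levels of Cd4, Trac, Cd3d, Cd3e, Cd3g and Trdc are a description and not results.

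The study profiled single cells by whole-transcriptome BD Rhapsody sequencing, and the 2 replicates form 1 group: ILC3s that were sorted out of lamina propria of the small intestine, from C57BL/6 mice that were male and 18 months old. The labels give no genotype, treatment or younger group for these replicates, and they do not say whether the replicates came from separate animals. The p-values therefore measure how evenly a difference appeared over 2 samples whose spread may be technical. Cells were assigned to a replicate by its sample tag, and cells of other tags were not analysed here. The Cd4+ T cells were described against 2 other classes of the same libraries. The Cd4- T cells passed the same T cell criteria with no Cd4 UMI (575 in replicate 1 and 545 in replicate 2), and the Cd4+ CD3- cells had a Cd4 UMI but none of Trac, Cd3d, Cd3e or Cd3g (75 and 41).

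CD4 is a coreceptor that binds major histocompatibility complex (MHC) class II and brings the kinase Lck to the T cell receptor. It marks helper and regulatory αβ T cells, but a part of the intestinal ILC3s, the lymphoid tissue inducer type, also carries CD4 without a T cell receptor. In the lamina propria, CD4 T cells are mostly antigen-experienced cells that take on helper programmes known by their transcription factors and cytokines (Tbx21 and Ifng for Th1, Il17a for Th17, Foxp3 for regulatory cells), and an ILC3 sort is meant to leave T cells out through their surface CD3.

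Genes outside the criteria were at T cell levels in these cells. Trbc2, the constant region of the T cell receptor β chain, was at 1211 CPM (UMIs of the gene per 1000000 UMIs of the class) in both replicates of the Cd4+ T cells. The same gene was at 1278 and 1142 CPM in the Cd4- T cells but at 309 and 238 CPM in the Cd4+ CD3- cells. Of the 157 cells, none had a Cd8a UMI, which allows a share of up to 1.91% of cells with a captured UMI and sets no limit on cells that express the gene, and 3 had a Cd8b1 UMI, whereas 131 and 71 of the 1120 Cd4- T cells had 1. Ncr1, an NK and ILC receptor, was found in 2 of the 157 cells. Cd4 itself, used in the definition, was at 934 and 918 CPM in the Cd4+ T cells and at 834 and 901 CPM in the Cd4+ CD3- cells. Trac was at 1692 and 1514 CPM in the Cd4+ T cells, and at 1226 and 1332 CPM in the Cd4- T cells.

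Many cells sat near the edge of the definition. Exactly 1 Cd4 UMI was found in 64 of the 157 cells, 2 in 46 and 3 or more in 47, and 6 cells had exactly 1 UMI each of Cd4, Trac and the Cd3 genes together. With at least 2 UMIs of both Cd4 and Trac, 83 cells remained (59 and 24). Just outside the definition were 17 cells with Cd4 and Trac but no Cd3 UMI, 30 with Cd4 and a Cd3 gene but no Trac UMI, and 5 with a Trdc UMI. When each cell was thinned to 1000 UMIs, Cd4 was found again in 70.8% and 68% of the cells, so a share of the Cd4- T cells can carry Cd4 mRNA that was not captured.

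Capture depth was alike in the classes compared. In the Cd4+ T cells the median cell held 2112.5 UMIs from 1076 genes in replicate 1, and 1818 UMIs from 995 genes in replicate 2. The Cd4- T cells had 2054 and 1799 UMIs, and the Cd4+ CD3- cells 1858 and 1736. Summed over cells, the Cd4+ T cells gave 249449 and 99099 UMIs. Cells called stromal here had at least 3 UMIs of Col1a1, Col1a2 and Col3a1 together and no UMI of Trac or a Cd3 gene. They numbered 134 and 8, with a median of 2085.5 and 2076.5 UMIs, and are set beside some shares. Whether they are stromal cells or other cells with stromal RNA was not tested. A Cd4 UMI was found in 2.99% of them in replicate 1 and 0 of 8 in replicate 2. Of all cells that passed the T cell criteria, 15.6% and 8.56% had 1. The stromal cells are no floor of free RNA for genes that ILCs carry, since their ILC3 marker genes summed to 4428 and 3382 CPM and Ncr1 was found in 23.9% of them, against 1.27% of the Cd4+ T cells and 2.05% of the Cd4- T cells. The libraries carried 3.62% and 5.97% cells with more than 1 tag, which were left out, and an estimated 1.34% and 2.36% of same-tag doublets cannot be seen. Of the barcodes of the replicates' own tags, 10 were shared between the libraries.

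Cd4 was not spread evenly over the T cells. Among cells of the T cell criteria with a Cd8a or Cd8b1 UMI, 3 of 109 and 0 of 37 had Cd4. Among those with a UMI of Zbtb16, the transcription factor of innate-like T cells, 6 of 109 and 3 of 216 had Cd4 (5.5% and 1.39%). Among those with Ret, a receptor tyrosine kinase, 3 of 184 and 0 of 159 did. Cells with an Il12rb2 UMI were at the other end, with Cd4 in 44 of 73 and 25 of 51 (60.3% and 49%), and cells with a Ccr9 UMI held Cd4 in 60 of 146 and 29 of 95 (41.1% and 30.5%). In cells with Trdc and a Cd3 gene, which are γδ T cells by these genes, Cd4 was found in 6 of 159 and 4 of 155 (3.77% and 2.58%).

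Within the T cells, those with Cd4 carried more of the receptors Il12rb2 and Ccr9, of the costimulatory or inhibitory receptors Tnfrsf4, Cd28 and Tigit, and of granzyme A and B mRNA. They carried less Blk and Zbtb16, genes of innate-like T cells, and less Ret and Il1r1, which ILC3s also carry. Of the 3844 genes tested, 200 differed (5.2%): 87 were higher (2.26%) and 113 lower (2.94%) in the Cd4+ T cells at an adjusted p under 0.05 (edgeR quasi-likelihood test with the replicate as a block), with a median log2 ratio of 0.00 over all genes. Without the replicate block the counts were 18 and 16, and DESeq2 called 29 and 33. Cells with a UMI of a B, myeloid, stromal or epithelial marker were then left out, which kept 44 and 33 of the Cd4+ T cells. Igkc, Igha, Iglc2, Jchain, Xbp1, Cst3 and Itgax did not count as markers in this setting, so cells with only these were kept. This gave 28 higher and 46 lower genes, of only 1691 tested.

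**Figure D1:**
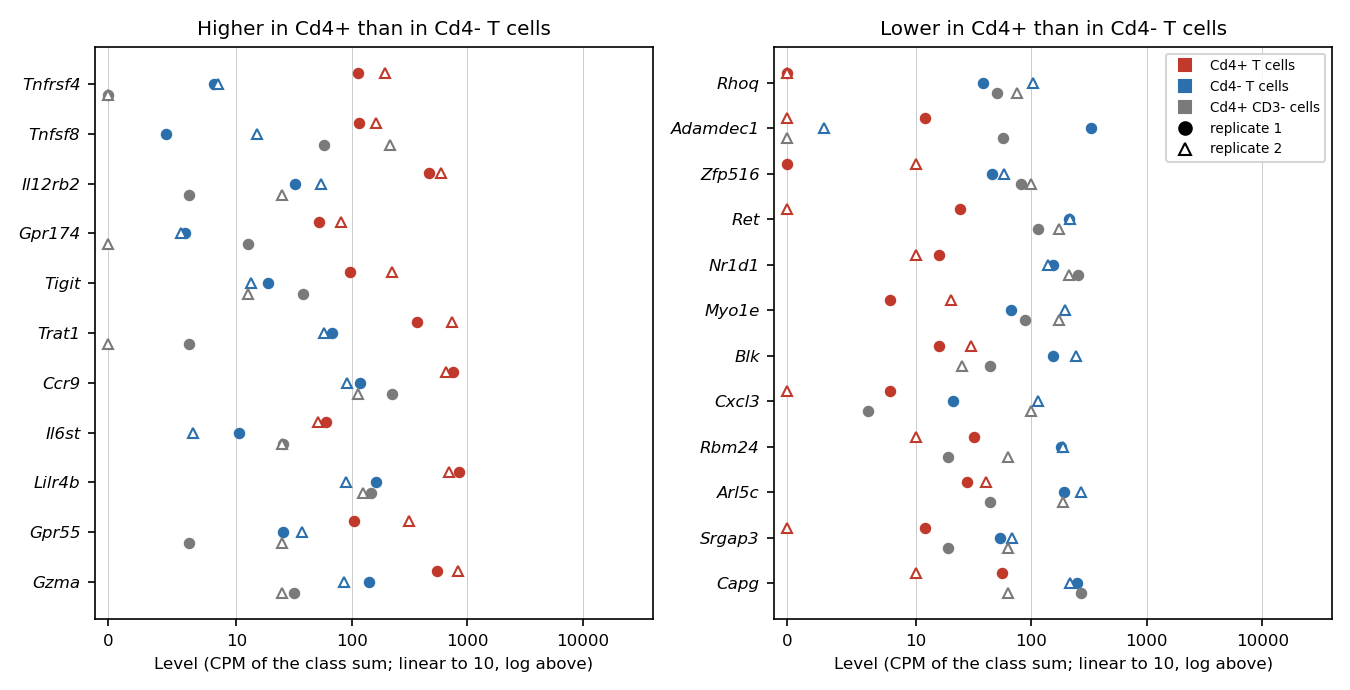
Level of 11 of the 12 genes with the largest positive and of the 12 with the largest negative ratio between Cd4+ and Cd4- T cells, in CPM of the class sum on an axis that is linear to 10 and logarithmic above. Circles are replicate 1 and triangles replicate 2; colours give the 3 classes. For Il12rb2 the Cd4+ T cells sit at 465 and 595 CPM and the Cd4- T cells at 32.2 and 54.1; for Ret, at 24.1 and 0 against 211 and 215.

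Il12rb2, the signalling chain of the interleukin 12 receptor, was at 465 and 595 CPM in the Cd4+ T cells and at 32.2 and 54.1 CPM in the Cd4- T cells. Both replicates of the first class lay above both of the second, and the log2 ratio was 3.59 ± 0.25 (SE; adjusted p = 6.12e-07, edgeR). An Il12rb2 UMI was found in 41.5% and 49% of the Cd4+ T cells, 25.5% and 42% after thinning, and in 5.04% and 4.77% of the Cd4- T cells. The stromal cells had it in 3.73% and 0%.

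Ccr9, through which lymphocytes follow Ccl25 into the small intestine, was at 746 and 656 CPM against 118 and 91.1 CPM (log2 ratio 2.67 ± 0.21, adjusted p = 2.48e-06, edgeR), with no overlap of the classes. It was found in 56.6% and 56.9% of the Cd4+ T cells, 15% and 12.1% of the Cd4- T cells, and 35.1% and 12.5% of the stromal cells. Lztfl1, which overlaps Ccr9 on the other strand, was also higher (1.75 ± 0.40, adjusted p = 0.0189); without a stated strand setting the reads of the pair cannot be told apart.

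Il21r, the interleukin 21 receptor, was at 645 and 868 CPM in the Cd4+ T cells against 167 and 93 CPM in the Cd4- T cells (log2 ratio 2.44 ± 0.27, adjusted p = 5.61e-05, edgeR). Il6st, the signal-transducing chain of the interleukin 6 receptor family, was at 60.1 and 50.5 CPM against 10.5 and 6.64 CPM (2.57 ± 0.63, adjusted p = 0.0274); its call was lost without the replicate block. Gpr55, a receptor for lysophospholipids, was at 104 and 313 CPM against 25.5 and 37 CPM (2.50 ± 0.34, adjusted p = 0.000316), and its call was lost in the same way. Without replicate 2 the Gpr55 ratio was 1.79. Here and below, ratios of a single replicate are differences of log2 CPM with a prior count of 2. This prior shrinks the ratios of genes with few UMIs. Il18rap, a chain of the interleukin 18 receptor, passed at 1.04 ± 0.28 (adjusted p = 0.0457), while its partner Il18r1 did not (0.22 ± 0.19, adjusted p = 0.633).

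The largest positive ratios were those of Tnfrsf4 and Tnfsf8. Tnfrsf4, which encodes the costimulatory receptor OX40, was at 112 and 192 CPM in the Cd4+ T cells and 8.24 and 8.54 CPM in the Cd4- T cells, with a log2 ratio of 4.0 ± 0.48 (adjusted p = 0.000157, edgeR) and of 3.16 in replicate 1 alone. Tnfsf8, the CD30 ligand, was at 116 and 162 CPM against 4.5 and 15.2 CPM (3.91 ± 0.45, adjusted p = 7.93e-05), and at 2.79 without replicate 1. Tigit, an inhibitory receptor, was at 96.2 and 222 CPM against 18.7 and 13.3 CPM (3.03 ± 0.45, adjusted p = 0.000709). The Tigit ratio was 2.06 without replicate 2 and 2.13 in the cells with at least 2 Cd4 and 2 Trac UMIs. For all 3 genes, every value of the Cd4+ T cells lay above every value of the Cd4- T cells.

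Trat1, an adaptor of the T cell receptor complex, was at 365 and 737 CPM in the Cd4+ T cells and 66.7 and 56.9 CPM in the Cd4- T cells (log2 ratio 2.96 ± 0.28, adjusted p = 1.71e-05, edgeR). Its ratio was 2.30 without replicate 2 and 3.74 without cells that had a Cd8a or Cd8b1 UMI. Slamf1 and Cd2, both adhesion receptors of activated T cells, passed at 1.82 ± 0.30 and 1.85 ± 0.35 (adjusted p = 0.0016 and 0.00441). Cd28, the main costimulatory receptor, was at 533 and 525 CPM against 292 and 201 CPM (1.03 ± 0.22, adjusted p = 0.0133). Gpr174, a lysophosphatidylserine receptor, had the ratio 3.30 ± 0.73 (adjusted p = 0.0146), a call lost without the replicate block, and 2.40 without replicate 2. Lilr4b encodes an immunoglobulin-like receptor and has a near-identical neighbour that may share its reads. It was at 846 and 686 CPM against 163 and 89.2 CPM (2.55 ± 0.21, adjusted p = 2.71e-06, edgeR). Its ratio was 3.24 without cells that had a Cd8a or Cd8b1 UMI.

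Icos and Ctla4 were abundant in both T cell classes. Icos, a costimulatory receptor of the Cd28 family, was at 1267 and 2301 CPM in the Cd4+ T cells and 1994 and 3118 CPM in the Cd4- T cells, a log2 ratio of -0.62 ± 0.14 (adjusted p = 0.019, edgeR). The classes overlapped across replicates for Icos, and the Cd4+ T cells were lower within each. Ctla4, an inhibitory receptor, was found in 61.3% and 60.8% of the Cd4+ T cells (39.6% and 36% after thinning) and in 59.5% and 53.8% of the Cd4- T cells, and its ratio of 0.26 ± 0.19 did not pass (adjusted p = 0.572). Cd40lg, the CD40 ligand through which helper T cells act on B cells, was found in 44.3% and 39.2% of the Cd4+ T cells and in 54.8% and 41.7% of the Cd4- T cells, with none of the stromal cells; its ratio was -0.31 ± 0.28 (adjusted p = 0.65).

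Some cytotoxic genes were higher in the Cd4+ T cells, among them granzymes A and B. Gzma, the protease granzyme A, was at 549 and 828 CPM in the Cd4+ T cells and 142 and 85.4 CPM in the Cd4- T cells (log2 ratio 2.48 ± 0.26, adjusted p = 5.04e-05, edgeR). It was found in 29.2% and 31.4% of the Cd4+ T cells and 6.26% and 3.49% of the Cd4- T cells. Its ratio was 1.84 without replicate 2 and 3.14 without the cells with a Cd8a or Cd8b1 UMI. Gzmb, granzyme B, was at 734 and 1292 CPM against 192 and 141 CPM (2.44 ± 0.29, adjusted p = 0.000104) and was found in 25.5% and 39.2% of the Cd4+ T cells. Both granzymes were higher in each replicate of the Cd4+ T cells than in either of the Cd4- T cells.

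The chemokines Xcl1 and Ccl5 were higher too. Xcl1, which attracts cross-presenting dendritic cells, was at 257 and 273 CPM in the Cd4+ T cells and 88.4 and 56 CPM in the Cd4- T cells (log2 ratio 1.77 ± 0.26, adjusted p = 0.000543, edgeR). Ccl5, a chemokine of cytotoxic and memory T cells, was at 742 and 515 CPM against 544 and 139 CPM (0.94 ± 0.26, adjusted p = 0.0434). The classes overlapped for Ccl5, since replicate 1 of the Cd4- T cells lay above replicate 2 of the Cd4+ T cells, and the ratios within the replicates were 0.36 and 1.53. A Ccl5 UMI was found in 43.4% and 33.3% of the Cd4+ T cells (28.3% and 28% after thinning) and in 16% and 6.42% of the Cd4- T cells, with 10.4% and 0% of the stromal cells. Nkg7, a cytotoxic granule protein, did not pass (50.9% and 35.3% of cells against 41.9% and 33%), and Gzmk was found in 5 and 2 of the Cd4+ T cells. Prf1, which encodes perforin, had 4 UMIs in replicate 1 and 1 in replicate 2 of the Cd4+ T cells.

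Of the 14 tested genes in a list for cytotoxicity, 4 were higher in the Cd4+ T cells (Gzma, Gzmb, Xcl1 and Ccl5) and none was lower, with a median log2 ratio of 0.41 against 0.00 over all genes tested. Of 24 genes of T cell receptor signalling, without the genes of the definition, 7 were higher and 1 lower (median 0.32); the lower one was Thy1, a surface protein of T cells and ILCs (-0.88 ± 0.18, adjusted p = 0.00814, edgeR). Of 12 checkpoint and costimulation genes 5 were higher and 1 lower (median 0.49), where 2.26% and 2.94% of all genes tested were. The Th1 list gave 4 higher of 13, among them Il12rb2 and Il18rap, and 1 lower (Cxcr6), with a median of 0.19.

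Genes of mucosal-associated invariant T (MAIT) and natural killer T (NKT) cells were lower in the Cd4+ T cells. Of the 8 tested, 6 fell, among them Blk, Zbtb16, Tmem176a, Tmem176b and Icos, and none rose, and the list's median was -1.26. Over all genes tested, 2.94% were lower and 2.26% higher. Blk, a Src family kinase, was at 16 and 30.3 CPM in the Cd4+ T cells and 155 and 244 CPM in the Cd4- T cells (log2 ratio -3.22 ± 0.42, adjusted p = 0.00022, edgeR). Zbtb16, which encodes PLZF, was at 24.1 and 40.4 CPM against 108 and 336 CPM (-2.65 ± 0.39, adjusted p = 0.000644). The classes were apart for both genes, and the Blk ratio was -4.14 in cells with at least 2 Cd4 and 2 Trac UMIs. Zbtb16 also differed between the replicates of the Cd4- T cells, with 17.9% and 39.1% of cells, but less between those of the Cd4+ T cells, with 5.66% and 5.88%.

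Ret, Nr1d1 and Il1r1 were lower in the Cd4+ T cells. Ret, the receptor for glial cell-derived neurotrophic factors, was at 24.1 and 0 CPM in the Cd4+ T cells and 211 and 215 CPM in the Cd4- T cells (log2 ratio -3.67 ± 0.47, adjusted p = 0.00022, edgeR). All 6 Ret UMIs came from replicate 1, where the ratio was -3.01. Nr1d1, a nuclear receptor of the circadian clock, was at 16 and 10.1 CPM against 155 and 140 CPM (-3.44 ± 0.44, adjusted p = 0.000198). Il1r1, the interleukin 1 receptor, was at 100 and 80.7 CPM against 291 and 313 CPM (-1.75 ± 0.27, adjusted p = 0.000836). Every replicate of the Cd4+ T cells lay below every replicate of the Cd4- T cells for these 3 genes. Ret was the 1 lower gene of 9 tested in the lymphoid tissue inducer list (median -0.39), where none was higher. Of 16 tested ILC3 genes 6 were lower, none was higher and 10 were not called, with a median of -0.82, or -0.60 with the genes at 0 UMIs set to their bound. Beside these lists, 2.94% of all genes tested were lower and 2.26% higher.

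The largest negative ratios also took in genes with too few UMIs in the Cd4+ T cells for a fitted fold. Rhoq, a small GTPase, had 0 UMIs in the Cd4+ T cells and 161 in the Cd4- T cells, at least 7.83-fold lower with a floor of 3 counts over the class (adjusted p = 0.0025, edgeR; lost without the replicate block). Zfp516, a zinc finger protein, had 1 UMI against 122 (17.8-fold lower, counting interval 3.14 to 709). Cxcl3, a neutrophil chemokine, had 2 against 148 (10.8-fold lower, interval 2.94 to 90), with 28 of the 148 in replicate 1 and 120 in replicate 2. Srgap3 had 3 against 144 (7-fold lower, interval 2.35 to 34.4), all 3 in replicate 1. The calls of Zfp516, Cxcl3, Srgap3 and Adamdec1 were lost without the replicate block, that of Adamdec1 also after thinning, and those of Zfp516 and Cxcl3 also in the cells with at least 2 Cd4 and 2 Trac UMIs. Adamdec1, a protease of intestinal stromal and myeloid cells, had 3 against 446 UMIs (21.7-fold lower, interval 7.38 to 106). In the Cd4- T cells it was at 332 CPM in replicate 1 and 2.85 CPM in replicate 2, and replicate 2 alone had 0 Adamdec1 UMIs against 3, too few for a fold.

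Rbm24, an RNA-binding protein, was at 32.1 and 10.1 CPM against 181 and 189 CPM (log2 ratio -2.88 ± 0.43, adjusted p = 0.000731, edgeR), a call lost without the cells that carried markers of other cell types. Capg, an actin-capping protein, was at 56.1 and 10.1 CPM against 249 and 218 CPM (-2.67 ± 0.44, adjusted p = 0.00152), a call lost without the replicate block. In replicate 2 alone the Rbm24 and Capg ratios were -4.03 and -4.24. S100a6, a calcium-binding protein of memory and tissue T cells, was at 148 and 90.8 CPM against 680 and 509 CPM (-2.36 ± 0.25, adjusted p = 5.51e-05). Ccr2, an inflammatory chemokine receptor, was at 80.2 and 80.7 CPM against 224 and 350 CPM (-1.77 ± 0.30, adjusted p = 0.00194). Gpr183, the oxysterol receptor, was at 233 and 212 CPM against 539 and 630 CPM (-1.40 ± 0.20, adjusted p = 0.000501). For each of these genes both values of the Cd4+ T cells lay below those of the Cd4- T cells. Tcrg-C1, a constant region of the γ chain whose copies can share reads, was also lower (-1.65 ± 0.22, adjusted p = 0.000254), although the criteria had removed cells with Trdc. The memory and homing list as a whole gave 2 higher and 6 lower of 23, with a median of -0.44, beside 2.26% and 2.94% of all genes tested.

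**Figure D2:**
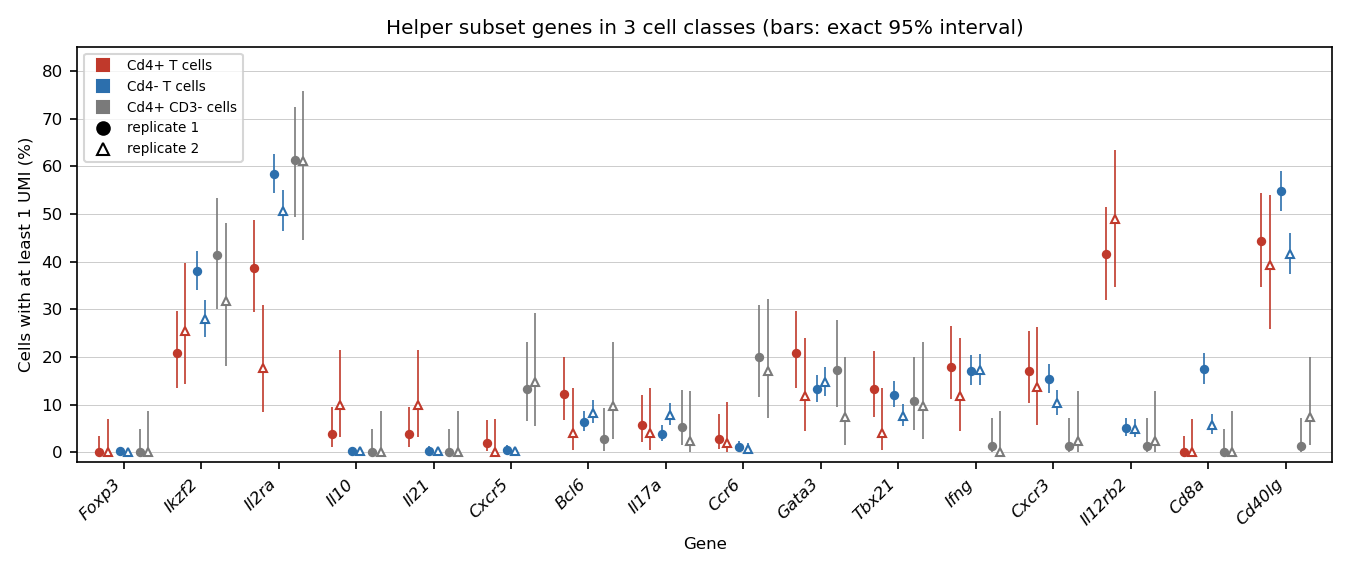
Percent of cells with at least 1 UMI of genes of helper subsets in the 3 classes, with exact 95% binomial intervals that cover counting error only; circles are replicate 1 and triangles replicate 2. Il12rb2 stands at 41.5% and 49% of the Cd4+ T cells, while Foxp3 was found in none of them.

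Foxp3, Il17a and Ccr6, which mark regulatory and Th17 cells, were found in none or few of the Cd4+ T cells. Foxp3, the transcription factor of regulatory T cells, had no UMI in any of the 157 Cd4+ T cells, which allows a share of up to 1.91% of cells with a UMI; 9 Foxp3 UMIs were found in 7 of all 7177 cells. Ikzf2, which is high in thymic regulatory T cells, was found in 20.8% and 25.5% of the Cd4+ T cells, in 38.1% and 27.9% of the Cd4- T cells and in 34.3% and 12.5% of the stromal cells. Il2ra, the high-affinity chain of the interleukin 2 receptor, was lower than in the Cd4- T cells, at 325 and 283 CPM against 516 and 489 CPM (-0.76 ± 0.19, adjusted p = 0.0293, edgeR). Of 14 tested genes of a regulatory T cell list 2 were higher (Tnfrsf4 and Tigit) and 3 lower, with a median of -0.27, beside the 2.26% and 2.94% of all genes tested.

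Il17a, the Th17 cytokine, was found in 6 and 2 of the Cd4+ T cells, and 1 cell in each replicate held 14 of 30 and 9 of 10 of the UMIs. Its ratio to the Cd4- T cells did not pass (0.83 ± 0.35, adjusted p = 0.231). Il17f had 25 UMIs in 1 cell of replicate 2. Ccr6, the chemokine receptor of Th17 cells, was found in 3 and 1 cells. Il22, a cytokine of ILC3s and Th22 cells, was found in 35.8% and 23.5% of the Cd4+ T cells but in 58.2% and 50% of the stromal cells, and 58.4% of its UMIs in replicate 2 came from 1 cell. Of 15 tested Th17 genes 2 were higher and 4 lower (median 0.11), beside 2.26% and 2.94% of all genes tested.

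Tbx21, the Th1 transcription factor T-bet, was found in 13.2% and 3.92% of the Cd4+ T cells, in 12% and 7.52% of the Cd4- T cells and in 12.7% and 12.5% of the stromal cells, with a ratio between the T cell classes of 0.12 ± 0.41 that did not pass (adjusted p = 0.942, edgeR). Ifng, the Th1 cytokine, was found in 17.9% and 11.8% of the Cd4+ T cells, in 17% and 17.2% of the Cd4- T cells and in 3.73% and 0% of the stromal cells; its ratio of -0.17 ± 0.30 did not pass (adjusted p = 0.888, edgeR). Cxcr3, a chemokine receptor of Th1 cells, was found in 17% and 13.7% against 15.3% and 10.3%. At least 1 UMI of Tbx21, Ifng, Cxcr3 or Il12rb2 was found in 63 and 29 of the Cd4+ T cells (59.4% and 56.9%), against 39.8% and 34.5% of the Cd4- T cells. Of these genes only Il12rb2 passed between the T cell classes, with the shares given above. The difference of the combined shares can therefore not be read apart from that gene.

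Of 4 tested genes of a follicular helper list 1 was higher in the Cd4+ T cells (Il6st, above) and none lower, with a median of 1.32. Over all genes tested 2.26% were higher, and 4 genes are too few to read against that share. At least 1 UMI of Cxcr5, Bcl6 or Il21 was found in 17.9% and 13.7% of the Cd4+ T cells, 7.13% and 8.62% of the Cd4- T cells and 16% and 21.9% of the Cd4+ CD3- cells. Cxcr5, the follicle-homing receptor, was found in 2 and 0 of the Cd4+ T cells, and Pdcd1 in 3 and 1. Bcl6, the factor of follicular helper cells, was found in 12.3% and 3.92%. Gata3, the Th2 factor that ILCs and other T cells also use, was found in 20.8% and 11.8% with a log2 ratio of -0.02 that did not pass. Of 7 tested naive and central memory genes none passed in either direction (median 0.24), and of 2 tested Th2 genes none did. Lag3, Eomes and Klrg1 had no UMI in the 157 cells. Il7r, the interleukin 7 receptor that ILC3s also carry, was found in 93.4% and 92.2% of the Cd4+ T cells and had a ratio of -0.03.

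The cytokines Il10 and Il21 were seen in a few Cd4+ T cells. Il10, an anti-inflammatory cytokine, was found in 4 of 106 and 5 of 51 cells (40.1 and 90.8 CPM), against 1 and 1 of the Cd4- T cells and none of the 116 Cd4+ CD3- cells. Il21, a helper cytokine for B cells, was found in 4 and 5 cells (36.1 and 60.5 CPM), against 2 and 1. Every Il10 cell, 4 of 4 and 5 of 5, also had UMIs of Il12rb2 and of Maf, a transcription factor that drives Il10, and 3 of 4 and 4 of 5 had Gzmb. Of the Il21 cells, 4 of 4 and 4 of 5 had Il12rb2, and Il10 and Il21 were found together in 0 and 3 cells. Il2 was found in 4 and 2 cells, and Il4 in 2 cells, 1 of which held 15 of its 16 UMIs. These co-occurrences are counts of cells with no test.

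Maf was abundant and higher in the Cd4+ T cells, at 1283 and 2664 CPM against 919 and 1385 CPM in the Cd4- T cells (log2 ratio 0.64 ± 0.15, adjusted p = 0.0225, edgeR). It was found in 75.5% and 90.2% of the Cd4+ T cells; the classes overlapped between replicates, and the Cd4+ T cells were higher within each. Zbtb7b and Runx3 encode the factors that fix the CD4 and the CD8 lineage. Zbtb7b was found in 6.6% and 3.92% of the Cd4+ T cells, 6.78% and 5.87% of the Cd4- T cells and 5.22% and 0% of the stromal cells. Runx3 was found in 56.6% and 56.9% of the Cd4+ T cells and 67% and 76.7% of the Cd4- T cells, with a ratio of -0.73 ± 0.21 that did not pass (adjusted p = 0.059). Cxxc1, a subunit of the Setd1 histone methyltransferase complexes and the gene named in the study's title, was at 104 and 50.5 CPM against 86.2 and 61.7 CPM (0.07 ± 0.33, adjusted p = 0.962). None of the 6 tested genes of its complexes passed, a number too small to read against the 5.2% of all genes that did.

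Reads over variable segments were too few to describe the receptor repertoire. The Cd4+ T cells had 15 Trbv UMIs from 8 genes in 14 cells of replicate 1 and 4 from 3 genes in 4 cells of replicate 2. The most frequent was Trbv12-2, in 5 cells of replicate 1. Trav segments gave 5 UMIs from 5 genes in replicate 1 and none in replicate 2. Traj18, the joining segment of invariant NKT cells, gave 3 of 12 and 3 of 5 Traj UMIs in the Cd4+ T cells, and 15 of 41 and 17 of 52 in the Cd4- T cells; unspliced transcripts of the locus can also give such reads.

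Inside the Cd4+ T cells, those with a Ccl5 or Gzma UMI were 57 of 106 and 23 of 51 (53.8% and 45.1%), against 19.5% and 7.89% of the Cd4- T cells. They are described without a test, since the split uses the same counts, and their median depth was 2200 and 1836 UMIs against 1979 and 1810.5 in the other Cd4+ T cells. Il12rb2 was at 570 and 932 CPM in the cells with Ccl5 or Gzma and 326 and 315 CPM in those without. Ccr9 was at 893 and 910 CPM against 550 and 444 CPM. Itga1 and Itgae, integrin chains of tissue-resident T cells, were at 218 and 311 against 65.3 and 92.5 CPM, and at 113 and 111 against 37.3 and 0 CPM. All 4 genes were higher in the cells with Ccl5 or Gzma in both replicates. Itgae rests on 16 and 5 UMIs against 4 and 0. These are a part of the list genes looked at, and others did not follow. Cd69 was at 984 and 621 against 1016 and 370 CPM, and Cxcr6 at 366 and 976 against 317 and 1092 CPM. Ifng was at 134 and 44.4 against 149 and 111 CPM. Tbx21 was at 112.5 and 0 against 46.6 and 37 CPM, and Cxcr3 at 56.3 and 88.8 against 121 and 55.5 CPM.

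**Figure D3:**
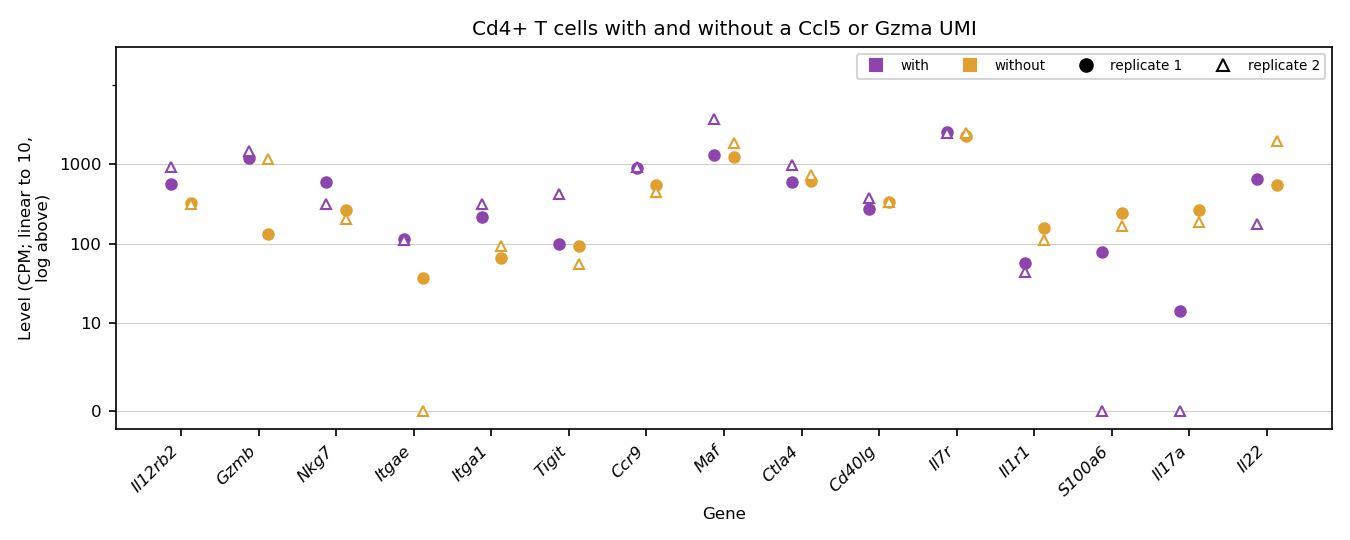
Level in CPM of 15 genes in Cd4+ T cells with and without a Ccl5 or Gzma UMI, on an axis that is linear to 10 and logarithmic above; circles are replicate 1 and triangles replicate 2. Il12rb2 and Ccr9 are higher in the cells with Ccl5 or Gzma in both replicates, while Il17a is at 14.1 and 0 CPM there and at 261 and 185 CPM in the other cells.

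A second set of genes was on the other side of this split. Il17a was at 14.1 and 0 CPM in the Cd4+ T cells with Ccl5 or Gzma and 261 and 185 CPM in those without, with most of its UMIs in few cells as given above. S100a6 was at 77.4 and 0 CPM against 243 and 167 CPM, and Il1r1 at 56.3 and 44.4 CPM against 159 and 111 CPM. These levels rest on few UMIs: 11 and 0 against 26 and 9 for S100a6, and 8 and 2 against 17 and 6 for Il1r1. Gzmb was uneven between replicates: 1188 against 131 CPM in replicate 1 and 1465 against 1147 CPM in replicate 2. Among single cells, Il12rb2 and Ccr9 were found together in 34 and 16 cells, and Gzma with Gzmb in 18 and 10 cells. At least 1 of Tbx21, Ifng, Cxcr3 and Il12rb2 and at least 1 gene of a cytotoxic set were found in 53 and 23 cells.

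Between the replicates of the Cd4+ T cells no test is possible, with 1 library each. Fos, an immediate early transcription factor, was at 2493 CPM in replicate 1 and 434 CPM in replicate 2, and Klf2, a factor of tissue exit, at 313 and 60.5 CPM. Cd69, the early activation and retention receptor, was found in 73.6% and 43.1% of the cells. The Cd4- T cells moved the same way, with Fos at 2759 and 819 CPM and Klf2 at 247 and 55 CPM. Id2, a regulator of innate lymphocytes, and Cxcr6, a homing receptor of tissue lymphocytes, were higher in replicate 2 of the Cd4+ T cells, at 477 and 1443 CPM and at 345 and 1039 CPM. Against the Cd4- T cells, 2 of 28 tested immediate early genes were lower (Ier2 and Dusp5) and none was higher, with a median of -0.32. Over all genes tested, 2.94% were lower and 2.26% higher.

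Set against Cd4+ CD3- cells, the Cd4+ T cells held less mRNA of genes of CD4-bearing ILC3s: MHC class II, Kit, Ccr6, Csf2, Vegfa, Cd83 and Il22 were lower. They held more of the T cell receptor adaptors, Ctla4, Cd40lg, the granzymes and the receptors Il12rb2 and Il21r. Since the definition of the Cd4+ CD3- cells removes T cells, a higher level of T cell genes follows from it and is a description. This comparison uses the same Cd4+ T cell counts as the one with the Cd4- T cells, so the 2 are not independent. Of 3844 genes tested, 461 differed (12.0%): 202 were higher (5.25%) and 259 lower (6.74%) in the Cd4+ T cells at an adjusted p under 0.05 (edgeR), with a median log2 ratio of -0.01. The counts were 75 and 104 without the replicate block, 93 and 153 by DESeq2, and 74 and 109 without cells carrying markers of other cell types. In the last case only 1691 genes were tested.

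MHC class II presents antigen to CD4 T cells. All 5 tested genes of its list (H2-Aa, H2-Ab1, H2-Eb1, Cd74 and Cd83) were lower in the Cd4+ T cells, with a median log2 ratio of -3.87. Cd83 is not itself an MHC class II gene and is also in the lymphoid tissue inducer list below. Over all genes tested, 6.74% were lower. Cd74, the invariant chain, was at 176 and 50.5 CPM in the Cd4+ T cells and 1168 and 2116 CPM in the Cd4+ CD3- cells (-3.80 ± 0.57, adjusted p = 0.000381, edgeR). H2-Aa was at 100 and 20.2 CPM against 676 and 964 CPM (-3.69 ± 0.62, adjusted p = 0.00102). Cd83, which stabilises MHC class II at the cell surface, had the ratio -5.66 ± 0.56 (adjusted p = 9.3e-06), at 12 and 20.2 CPM against 638 and 776 CPM, and -4.97 in replicate 2 alone. The classes did not overlap in any of these 3 genes. Against the Cd4- T cells none of the 5 genes of this list passed (median -0.24).

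Of 9 tested genes of lymphoid tissue inducer cells, 7 were lower and none higher (Cd83, Cacna1g, Cxcr5, Nrp1, Ccr6, Ret and Tnfsf11). Their list's median was -3.13, and 6.74% of all genes tested were lower. Kit and Il22, of the ILC3 list, and Vegfa and Csf2, of the cytokine list, were lower too. Kit, the stem cell factor receptor, was at 48.1 and 60.5 CPM in the Cd4+ T cells and 505 and 501 CPM in the Cd4+ CD3- cells (log2 ratio -3.30 ± 0.32, adjusted p = 8.75e-06, edgeR). Ccr6 was at 20 and 10.1 CPM against 158 and 125 CPM (-3.13 ± 0.67, adjusted p = 0.00569). Vegfa, an angiogenic factor, was at 12 and 20.2 CPM against 379 and 338 CPM (-4.69 ± 0.47, adjusted p = 1.07e-05; -3.78 in replicate 2 alone). Csf2, the cytokine GM-CSF, was at 44.1 and 30.3 CPM against 227 and 363 CPM (-2.79 ± 0.39, adjusted p = 0.000199). Il22 was at 609 and 1140 CPM against 5526 and 3919 CPM (-2.54 ± 0.25, adjusted p = 8.75e-06). Each of these genes was lower in both replicates of the Cd4+ T cells than in either of the Cd4+ CD3- cells.

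Bmp2, Tyrobp and Rhoq had no UMI in the Cd4+ T cells. Bmp2, a morphogen, had 22 UMIs in the Cd4+ CD3- cells, so it was at least 10.7-fold lower in the Cd4+ T cells with a floor of 3 counts over the class, a call lost without the replicate block. Tyrobp, the signalling adaptor DAP12 of innate cells, had 16 (at least 7.8-fold lower), and Rhoq had 14 (at least 6.83-fold lower). Plek, a protein kinase C substrate of innate cells, had 1 UMI against 84 (123-fold, counting interval 21.5 to 4911). Cxcr5 had 2 against 22 (16.1-fold, interval 3.96 to 141) and Nrp1, a semaphorin coreceptor, 3 against 32 (15.6-fold, interval 4.88 to 79.7), with 31 of the 32 Nrp1 UMIs in replicate 1. Cd81, a tetraspanin, had 2 against 34 (24.9-fold, interval 6.38 to 214).

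On the higher side, Cd40lg was at 301 and 353 CPM in the Cd4+ T cells and 6.32 and 75.1 CPM in the Cd4+ CD3- cells (log2 ratio 3.37 ± 0.54, adjusted p = 0.000624, edgeR). Ctla4 was at 605 and 838 CPM against 152 and 87.6 CPM (2.39 ± 0.28, adjusted p = 3.73e-05). Gzma and Gzmb had ratios of 4.47 ± 0.46 and 3.48 ± 0.44 (adjusted p = 1.45e-05 and 7.61e-05). Il17a was at 120 and 101 CPM against 31.6 and 12.5 CPM (2.14 ± 0.59, adjusted p = 0.0264), a call that rests on the few Il17a-rich cells. None of these 5 genes overlapped between the classes.

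Several higher genes were at or near 0 UMIs in the Cd4+ CD3- cells. Sit1, a transmembrane adaptor of T cell signalling, had 54 UMIs against 0 (at least 12.3-fold higher), and Tnfrsf4 had 47 against 0 (at least 10.7-fold higher). Itgae, the αE integrin of mucosal T cells, had 25 against 0 (at least 5.7-fold higher) and Tbc1d4, a Rab regulator of glucose transport, 27 against 0 (at least 6.15-fold higher), both calls lost without the replicate block. Il12rb2 had 175 UMIs, 116 and 59 by replicate, against 3 (39.9-fold, counting interval 13.4 to 195) and Ifng 43, of which 35 were in replicate 1, against 1 (29.4-fold, interval 5 to 1188). The Ifng call was lost without cells carrying markers of other cell types. Cxcr3 had 28 against 2 (9.57-fold, interval 2.41 to 82.9) and Prdm1, the effector factor Blimp-1, 26 against 2 (8.88-fold, interval 2.23 to 77.2).

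The lists followed the same division in this comparison. Of 24 T cell receptor signalling genes 15 were higher and none lower (median 1.72), and of 12 checkpoint and costimulation genes 7 were higher and none lower (median 1.93). Of 16 ILC3 genes 8 were lower and none higher (median -1.39). The Th17 list gave 3 higher and 5 lower of 15 (median -1.10), and the cytotoxic list 6 higher and 3 lower of 14 (median 0.84). Of 28 immediate early genes 14 were lower and 2 higher (median -0.78), and of 18 ribosomal protein genes 4 were higher and none lower (median 0.38). These counts stand beside 5.25% of all genes tested that were higher and 6.74% that were lower.

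**Figure D4:**
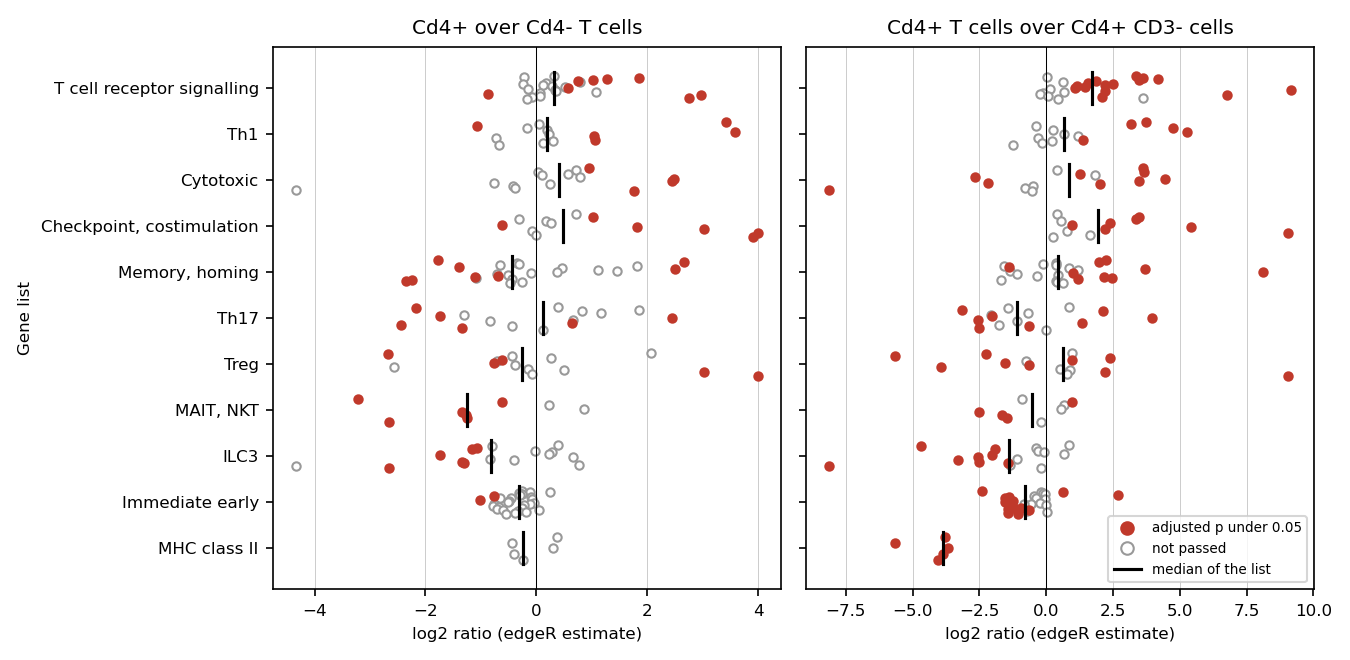
Log2 ratios of the genes of 11 lists in Cd4+ T cells over Cd4- T cells (left) and over Cd4+ CD3- cells (right), as estimated by edgeR; filled points passed an adjusted p of 0.05, open points did not, and bars are list medians. Points of genes with 0 UMIs in a class are fitted values and not bounds. The MAIT and NKT list has a median of -1.26 on the left, and the MHC class II list of -3.87 on the right.

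RNA of other cell types moved with some of these differences. The summed level of 10 stromal marker genes was 2036 and 151 CPM in the Cd4+ T cells, 3589 and 123 CPM in the Cd4- T cells and 909 and 125 CPM in the Cd4+ CD3- cells, so it was high in replicate 1 of all classes. Of 7 tested stromal genes 3 were lower in the Cd4+ T cells against the Cd4- T cells and 4 higher against the Cd4+ CD3- cells. Over all genes tested, 2.94% were lower in the first comparison and 5.25% higher in the second. B and plasma cell genes summed to 2301 and 313 CPM, 3169 and 761 CPM, and 18300 and 501 CPM in the 3 classes, with Ms4a1 at 0 in the Cd4+ T cells. ILC3 marker genes summed to 3071 and 5066 CPM in the Cd4+ T cells, 3996 and 5952 CPM in the Cd4- T cells and 10150 and 9565 CPM in the Cd4+ CD3- cells, with Tyrobp and Rxrg at 0 in the Cd4+ T cells. The part of this RNA in the results was not tested beyond the counts without marker-bearing cells given above. That setting did not use Igkc, Igha, Iglc2, Jchain or Xbp1, so it is no check on most plasma cell RNA.

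Positions are in mm10/GRCm38 coordinates of the GENCODE M21 annotation, matched by symbol. Cd4 spans chromosome 6 from 124864692 to 124888221 on the minus strand, and Il12rb2 lies on the same chromosome from 67291318 to 67376188, minus strand, where it overlaps Serbp1 on the other strand. Ccr9 lies on chromosome 9 from 123678439 to 123784330, plus strand. Tnfrsf4 lies on chromosome 4 from 156013843 to 156016612, Gzma on chromosome 13 from 113093825 to 113100981 and Ret on chromosome 6 from 118151745 to 118197718. Values are per gene, and the strand setting of the counting is not given in the sources used here.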

How the data were processed

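Each library was a BD Rhapsody whole-transcriptome capture. Per the file headers, the authors' deposited tables hold UMI counts per gene and cell from pipeline 1.8 with GRCm38 and GENCODE M19 (the tables' names mark them as RSEC values, the pipeline's UMI error correction). HISAT2 2.0.5, Bowtie2 and the builds mm10 and GRCm38.p6 are named in the submitters' processing notes without a role. Cells were kept with the replicate's own tag, at least 300 genes and at most 25% mitochondrial UMIs. UMI counts were summed per class and replicate (3 classes, 2 replicates) and fitted together by edgeR 4.0.16 in R 4.3.3 (quasi-likelihood test, TMM factors, low count filter). The replicate was a block because the classes come from the same libraries. The 6 genes of the definition stayed in the counts for scaling and fitting. They were taken out before the Benjamini-Hochberg adjustment, which ran over 3844 genes with a threshold of 0.05. The fit has 2 residual degrees of freedom. DESeq2 1.42.0 was an alternative.

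CPM are counts per 1000000 UMIs of the class sum, with no length scaling. Ratios of a single replicate are differences of log2 CPM with TMM factors and a prior count of 2. The prior shrinks ratios of genes with few UMIs, so they are not on the scale of the edgeR ratios. Shares have exact Clopper-Pearson 95% intervals; intervals and the floor of 3 counts cover counting error only. Thinning drew 1000 UMIs per cell at random. Genes named are the 12 with the largest positive and the 12 with the largest negative ratio per comparison, among called genes with the same sign in both replicates and at least 20 UMIs and 50 CPM in the higher class, and the members of written lists. Lztfl1, Prdm1 and the genes of the closing observations other than Casp1, Casp4 and Ccl5 were chosen after their values were seen. Some genes of the rule and of the lists are not reported here. The criteria, the genes and the lists were chosen with earlier results of these data known. In simulated counts with known changes, 4-fold higher genes were called in 100% and 4-fold lower genes in 82.9% of cases against the Cd4- T cells, and 2-fold ones in 50% and 38.1%. Against the Cd4+ CD3- cells these shares were 94% and 51.2%, and 25% and 21.4%. The simulation gave every gene the same spread, the common dispersion of 0.0163 fitted to these data.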

Additional observations from a re-analysis of the deposited data

How the results depend on the processing

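The replicate block pairs classes of the same library. Without it, the comparison with Cd4- T cells gave 18 higher and 16 lower genes in place of 87 and 113, and the comparison with Cd4+ CD3- cells 75 and 104 in place of 202 and 259. DESeq2 gave 29 and 33, and 93 and 153. Without cells carrying markers of other cell types the counts were 28 and 46, and 74 and 109. Only 1691 genes were tested in that setting, in place of 3844. The lower genes against Cd4- T cells numbered 187 with no low count filter, 190 with only these 2 classes in the fit and 176 without cells above 2 times their library's median UMIs. The genes tested in these settings were 14481, 6431 and 3235. Thinning to 1000 UMIs moved the mean share of Cd4+ T cells with a Ccl5 UMI from 38.4% to 28.1%, with Il12rb2 from 45.3% to 33.7% and with Ctla4 from 61% to 37.8%. The Ctla4 share was 64.7% with at least 2 Cd4 and 2 Trac UMIs and 58.5% without large cells. Over single replicates the shares ranged from 1.33 to 3.18% for the Cd4+ T cells among kept cells, 33.3 to 43.4% for Ccl5, 41.5 to 49% for Il12rb2 and 60.8 to 61.3% for Ctla4. Of the 48 ratios of the genes with the largest changes (some genes in both comparisons), none changed sign where a setting gave a value, and 24 values lost the call, 17 of them without the block. Not every ratio could be tested under each setting: 22 kept and 2 lost the call without marker-bearing cells, and 28 and 1 after thinning. With 1 replicate left out no residual degrees of freedom remain, so no fit was run and there are no calls. Those ratios are differences of log2 CPM with a prior count of 2, which shrinks the ratios of genes with few UMIs. By these values 24 of the 48 ratios moved beyond the spread without replicate 1, and 24 did not. Without replicate 2, 19 moved and 29 did not. Shrinkage and differences between replicates cannot be told apart in these counts. Cells with 1 Cd4 UMI and 2 libraries limit the precision of every share and ratio.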

Other observations

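Some further genes, chosen after their values were seen, passed between Cd4+ and Cd4- T cells. Idi1 and Cyp51, enzymes of cholesterol synthesis, were higher in the Cd4+ T cells, Idi1 at 156 and 212 CPM against 56.2 and 88.2 CPM (log2 ratio 1.33 ± 0.27, adjusted p = 0.00887, edgeR) and Cyp51 at 237 and 212 CPM against 114 and 116 CPM (0.94 ± 0.26, adjusted p = 0.0461). Hk2, the first enzyme of glycolysis, was lower, at 309 and 212 CPM against 726 and 684 CPM (-1.46 ± 0.20, adjusted p = 0.00029), as were Igf1r, the insulin-like growth factor receptor (-2.47 ± 0.32, adjusted p = 0.000222), and Irs2, an adaptor of insulin signalling (-1.60 ± 0.25, adjusted p = 0.00113). Both values of the Cd4+ T cells lay outside those of the Cd4- T cells for Idi1, Cyp51 and Hk2.

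Apaf1 and Pmaip1, which act in mitochondrial apoptosis, were higher in the Cd4+ T cells at 2.05 ± 0.36 (adjusted p = 0.00249, edgeR) and 1.93 ± 0.45 (adjusted p = 0.0192). The inflammatory caspases Casp1 and Casp4 were higher at 1.94 ± 0.40 (adjusted p = 0.00814) and 1.67 ± 0.27 (adjusted p = 0.00143). Malt1, a protease of antigen receptor signalling, was at 381 and 283 CPM against 92.9 and 83.5 CPM (1.87 ± 0.25, adjusted p = 0.000289), and Inpp4b, a phosphatase of phosphoinositides, at 293 and 192 CPM against 65.2 and 32.3 CPM (2.25 ± 0.28, adjusted p = 0.000157). Of 13 tested genes of an age and stress list 4 were higher, among them Casp1, Casp4 and Ccl5, and none was lower, with a median of 0.49. Over all genes tested, 2.26% were higher and 2.94% lower.

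Xist, the RNA of the inactive X chromosome, was higher in the Cd4+ T cells of these male mice, at 136 and 40.4 CPM against 48.7 and 15.2 CPM (1.44 ± 0.37, adjusted p = 0.033, edgeR). It was found in 11 and 3 of the Cd4+ T cells, of which 3 and 2 had no UMI of Ddx3y, Eif2s3y, Uty or Kdm5d; the Y-linked genes were found in 67.9% and 66.7% of all Cd4+ T cells. The source of the Xist UMIs was not tested.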
